A study of Mus musculus with 8 samples.

Results

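The genes described here are 10 that are widely used as markers of macrophages or of leukocytes in general: Ptprc, Laptm5, Csf1r, Cd68, Emr1, Itgam, Itgb2, Tyrobp, Fcer1g and Aif1. They were chosen by gene symbol in the array's own annotation, from 18120 symbols in all, and are read there by 16 of 25697 probes. Each symbol was found, with 1 to 3 probes. Glomeruli, the filtering units of the kidney, were taken from 3-week-old FVB/N males. The wild-type group, Cd151+/+, had 4 mice and the knockout group, Cd151-/-, in which the gene for the tetraspanin CD151 is disrupted, had 4 mice. The study isolated the glomeruli by perfusing magnetic beads through the heart, minced and digested the kidneys and collected the beads with the glomeruli around them. RNA of each mouse was amplified, labelled with biotin and hybridised to 1 Illumina MouseRef-8 array. The samples are whole isolates, so fewer cells of a type and less RNA per cell cannot be told apart in any value below.

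Macrophages are phagocytes that live in or enter most tissues, and in the kidney they lie mainly between the tubules, with few in a healthy glomerulus. Their survival depends on the CSF1 receptor, encoded by Csf1r. They hold on to vessel walls and to complement-coated targets through beta2 integrins, and pass signals from Fc and other surface receptors through small adaptor proteins with an activation motif known as ITAM. Influx of such cells into glomeruli is a known feature of many glomerular diseases, and CD151 loss in FVB/N mice gives one with protein in the urine and a damaged basement membrane. The comparison of the genotypes asks which genes of the glomerulus differ early in that disease.

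All 3 probes of Cd151 were detected in every Cd151+/+ mouse and in no Cd151-/- mouse. By background, the signal of probes that bind nothing, the arrays formed 2 sets with both genotypes equally in each. A lower background, of 59.0 to 69.5, was found for wild-type mice 1 and 2 and knockout mice 3 and 4, and a higher one, of 123 to 135, for the remaining 4 mice. At the median, detected probes were 3.00 to 4.46 times as bright as the background, which together with the number of arrays limits the precision. A probe was called detected on an array where its detection p-value, the share of that array's negative-control probes at least as bright, was 0.05 or lower, a limit that about 5% of the negative controls pass by construction. Levels are given as normalised log2 signal. They are not comparable between probes, and are compressed close to the background.

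Most of the marker genes were read at or close to the background in both genotypes. Of the 10 genes, 4 (Ptprc, Emr1, Itgam and Fcer1g) were detected on no array by any of their probes, 3 (Csf1r, Itgb2 and Tyrobp) on some arrays and 3 (Laptm5, Cd68 and Aif1) on all 8. Over all symbols of the array, 38.0% were detected on no array and 40.9% on all 8. Between 4 and 6 of the 10 genes were detected per Cd151+/+ mouse, and between 4 and 5 per Cd151-/- mouse. At a detection p-value of 0.01 or lower, 5 genes were detected on at least 1 array and 1 gene, Laptm5, on all 8. A probe at the background says only that its signal could not be told from that of the negative controls, not that the RNA is absent. Kdr, a receptor gene of the endothelium that lines glomerular capillaries, was detected on 2 of 8 arrays.

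**Figure D1:**
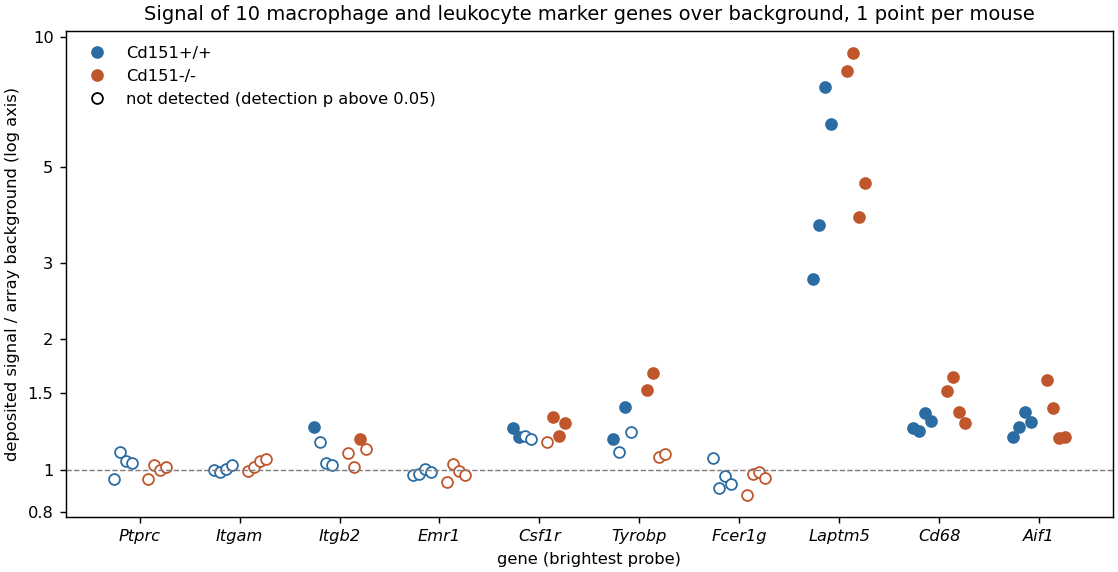
The deposited signal divided by the background of its array is plotted on a log axis for the brightest probe of each of the 10 genes, 1 point per mouse, with Cd151+/+ in blue, Cd151-/- in orange and open circles where the detection p-value was above 0.05. Ptprc, Itgam, Emr1 and Fcer1g lie around 1 in all 8 mice, and Laptm5 lies between 2.76 and 9.15.

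The sequences just before the start of the 3 genes that were detected in every mouse are shown because these genes carry the comparison of the genotypes. PU.1, the transcription factor of the myeloid lineage, binds sites around the letters GAGGAA, and capitals mark those letters or their reverse complement TTCCTC. Each is the stretch of 250 bases that ends at the annotated start, read 5′ to 3′ on the gene's strand, from RefSeq for mouse build GRCm38.p6. Laptm5 lies on the plus strand at chr4:130913066-130913315, Cd68 on the minus strand at chr11:69666171-69666420 and Aif1 on the minus strand at chr17:35176053-35176302.
Laptm5: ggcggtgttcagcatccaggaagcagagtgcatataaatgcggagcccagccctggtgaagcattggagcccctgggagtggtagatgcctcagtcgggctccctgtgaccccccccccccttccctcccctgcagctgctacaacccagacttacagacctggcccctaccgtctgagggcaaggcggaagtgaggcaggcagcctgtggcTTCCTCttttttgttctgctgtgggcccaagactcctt
Cd68: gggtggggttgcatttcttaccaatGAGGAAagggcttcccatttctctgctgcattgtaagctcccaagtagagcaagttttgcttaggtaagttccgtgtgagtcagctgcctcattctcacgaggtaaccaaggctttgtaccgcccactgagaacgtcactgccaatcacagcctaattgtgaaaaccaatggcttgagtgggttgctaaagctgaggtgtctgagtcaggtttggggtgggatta
Aif1: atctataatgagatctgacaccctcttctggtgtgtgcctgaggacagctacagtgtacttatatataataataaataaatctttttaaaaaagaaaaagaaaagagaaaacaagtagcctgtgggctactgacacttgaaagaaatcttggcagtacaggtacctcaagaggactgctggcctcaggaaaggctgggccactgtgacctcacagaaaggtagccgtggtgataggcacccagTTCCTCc

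The match begins 38 bases before the start in Laptm5, 225 in Cd68 and 7 in Aif1. All 10 genes are named in the RefSeq table and 6 have such a sequence there, of which 5 hold the letters on either strand in at least 1 window, the exception being Fcer1g. Of all 27025 genes with a window of that length, 25.9% hold them. A match describes the letters only. The probe of the gene for PU.1 itself, Sfpi1 on the array, was not detected on any of the 8 arrays.

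Ptprc encodes CD45, the phosphatase on the surface of all nucleated blood cells, and was not detected. The brighter of its 2 probes, ILMN_2671984, had detection p-values from 0.155 to 0.663 over the 8 mice, where 0.05 is the limit for detection. Its readings in Cd151+/+ and Cd151-/- mice overlapped, and genes without a detected reading were left out of the main test across genes. Laptm5 encodes a lysosomal membrane protein of blood cells and was the one member with a signal over 2 times the background in every mouse. Its signal was 2.76, 3.67, 7.64 and 6.30 times the background in Cd151+/+ mice 1 to 4, and 8.34, 9.15, 3.82 and 4.58 times in Cd151-/- mice 1 to 4. The 4 higher ratios were those of the 4 arrays with the higher background, 2 of each genotype.

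After normalisation Laptm5 had a log2 signal of 8.21, 8.64, 9.64 and 8.79 in the Cd151+/+ mice, and of 9.18, 9.29, 8.80 and 8.87 in the Cd151-/- mice. The groups overlapped, with the lowest and the highest value both in Cd151+/+ mice. The means were 8.82 ± 0.60 (SD, n = 4) and 9.04 ± 0.24 (SD, n = 4), a difference of 0.22 ± 0.30 (SE), or 1.16-fold with a 95% interval from 0.735 to 1.83. It did not pass the test (adjusted p = 0.920, limma, Benjamini-Hochberg over 14967 probes; exact permutation test, two-sided, p = 0.514). The difference was 0.41 among the arrays of lower background and 0.02 among those of higher background, and leaving out 1 mouse at a time gave 0.01 to 0.49.

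Csf1r encodes the receptor for the growth factors CSF1 and IL-34. Its brighter probe, ILMN_2710819, was detected in 2 wild-type and 3 knockout mice. Its log2 signal was 5.88, 5.55, 5.24 and 5.08 in Cd151+/+ mice 1 to 4 and 5.01, 5.34, 5.58 and 5.90 in Cd151-/- mice 1 to 4. The 2 groups spanned nearly the same range, and the difference of the means was 0.02 ± 0.26 (SE; 95% interval −0.56 to 0.60; adjusted p = 0.992, limma, Benjamini-Hochberg). The dimmer probe, ILMN_1230485, was detected in 2 Cd151+/+ mice and 1 Cd151-/- mouse and differed by −0.37 ± 0.24 (SE), which also did not pass (adjusted p = 0.918, same test). Emr1, now named Adgre1, encodes a surface receptor whose antibody stain is a common mark of mouse tissue macrophages. None of its 3 probes was detected in any mouse, and the brightest, ILMN_2847787, read 0.939 to 1.03 times the background.

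Itgam and Itgb2 encode the alpha and beta chains of the integrin Mac-1, which binds complement fragments and the endothelial protein ICAM-1. Itgam, read by 1 probe, was not detected, with a signal of 0.986 to 1.06 times the background. Itgb2, the chain that all beta2 integrins of leukocytes share, was detected in Cd151+/+ mouse 1 and Cd151-/- mouse 3 alone. Its log2 signal was 5.91, 5.36, 4.78 and 4.75 in the Cd151+/+ mice and 4.87, 4.73, 5.50 and 5.10 in the Cd151-/- mice. The groups overlapped, and the difference was −0.15 ± 0.30 (SE; 95% interval −0.81 to 0.51; adjusted p = 0.938, limma, Benjamini-Hochberg).

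Tyrobp, which encodes the ITAM adaptor DAP12 of myeloid and natural killer cells, was detected in 2 mice of each genotype. Its log2 signal was 5.48, 5.05, 5.88 and 5.19 in the Cd151+/+ mice and 5.77, 5.98, 4.92 and 4.97 in the Cd151-/- mice. The difference was 0.01 ± 0.30 (SE; 95% interval −0.65 to 0.68; adjusted p = 0.996, limma, Benjamini-Hochberg), and it was −0.32 among the arrays of lower and 0.35 among those of higher background. Fcer1g, which encodes the gamma chain through which Fc receptors signal, was not detected, with a signal of 0.876 to 1.06 times the background.

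Cd68 encodes a heavily glycosylated protein of macrophage lysosomes. It was detected in all 8 mice, where its signal exceeded the background by a factor of 1.23 to 1.35 in wild-type and of 1.28 to 1.63 in knockout mice. Its log2 signal was 5.86, 5.73, 5.75 and 5.37 in Cd151+/+ mice 1 to 4 and 5.76, 5.93, 6.31 and 5.88 in Cd151-/- mice 1 to 4. Only Cd151-/- mouse 1 lay within the range of the Cd151+/+ mice. The means were 5.68 ± 0.21 (SD, n = 4) and 5.97 ± 0.24 (SD, n = 4), and the difference, 0.29 ± 0.21 (SE; 95% interval −0.18 to 0.76), did not pass (adjusted p = 0.918, limma, Benjamini-Hochberg; exact permutation test, two-sided, p = 0.0571). It was 0.30 among the arrays of lower and 0.28 among those of higher background, and leaving out 1 mouse at a time gave 0.18 to 0.37.

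Aif1 encodes IBA1, a calcium-binding protein of macrophages and microglia that bundles actin. Its brightest probe, ILMN_2804487, was detected in all 8 mice. The log2 signal was 5.55, 5.87, 5.77 and 5.36 in the Cd151+/+ mice and 5.93, 5.48, 5.52 and 5.47 in the Cd151-/- mice. The groups overlapped, with a difference of −0.04 ± 0.21 (SE; 95% interval −0.51 to 0.43; adjusted p = 0.983, limma, Benjamini-Hochberg). A second probe, ILMN_1212938, was detected in 3 Cd151+/+ and 2 Cd151-/- mice and differed by −0.08, with 0.42 among the arrays of lower and −0.59 among those of higher background. The remaining probe, ILMN_1218123, was not detected.

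**Figure D2:**
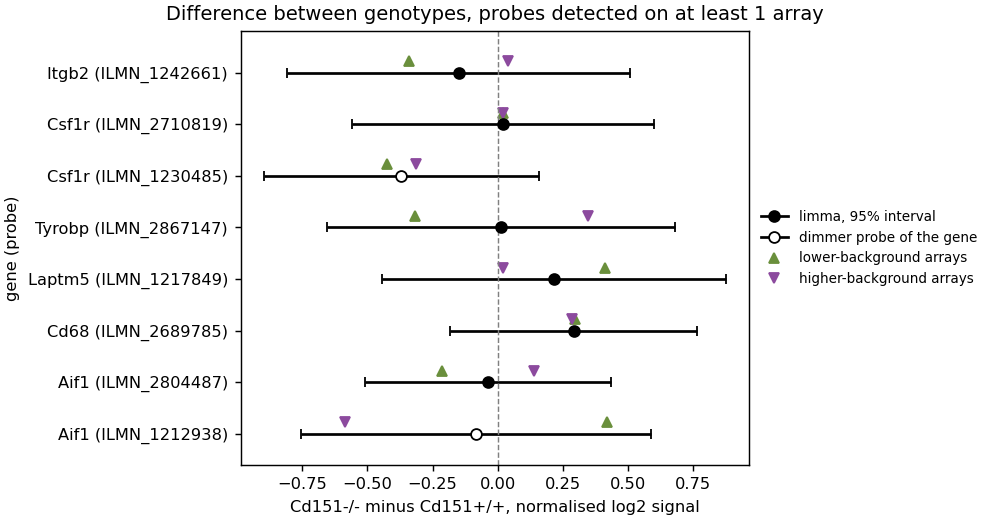
Points give the difference in normalised log2 signal, Cd151-/- minus Cd151+/+, for the 8 tested probes of the marker genes, with 95% intervals from limma, and triangles give the same difference within the 4 arrays of lower and the 4 of higher background. Every interval spans 0, and the 2 triangles lie on opposite sides of 0 for Itgb2, Tyrobp and both Aif1 probes.

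Over the 6 genes with a detected reading, 4 had a higher and 2 a lower mean in the knockout, with a median difference of 0.02 against −0.0018 over all 11240 genes tested, of which 49.7% were higher. None of the 6 passed limma's adjusted p of 0.05, as 0.0267% of all tested genes and 0.0334% of all tested probes did. At an unadjusted p of 0.05, which 1.9% of all genes passed upward and 2.47% downward (4.37% in all), 0 passed, and 0 passed the exact permutation test at that limit. In none of the 6 were the genotypes without overlap, as they were in 2.27% of all tested genes. This repeats the permutation count, since with so few mice only genotypes without overlap pass that test at that limit. The background-corrected signals of the 10 genes summed to between 510.5 and 976.5 per wild-type mouse and between 640.3 and 806.8 per knockout mouse, 1 range inside the other. Laptm5, the brightest of the 10 in every mouse, was the largest part of each sum, so the ranges mainly follow that gene. Since these genes span few steps above background, the intervals bound a change in normalised signal and not in the amount of RNA.

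Several marker genes differed more between the 2 sets of arrays than between the genotypes. Csf1r was detected on 4 of 4 arrays of lower and 1 of 4 of higher background, with mean log2 signals of 5.73 and 5.17, and the 2 sets did not overlap. Itgb2 was detected on 2 and 0 arrays, at 5.47 and 4.78, again without overlap. These 2 of the 6 tested marker genes separated by set, as did 24.7% of all tested genes. Tyrobp went the opposite way, with 1 and 3 arrays detected, and had a mean higher by 0.60 in the set of higher background, as did Laptm5, also by 0.60, both with overlap. The dimmer Csf1r probe was higher by 0.30 in that set, against −0.56 for the brighter one. Each set held 2 mice of each genotype.

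**Figure D3:**
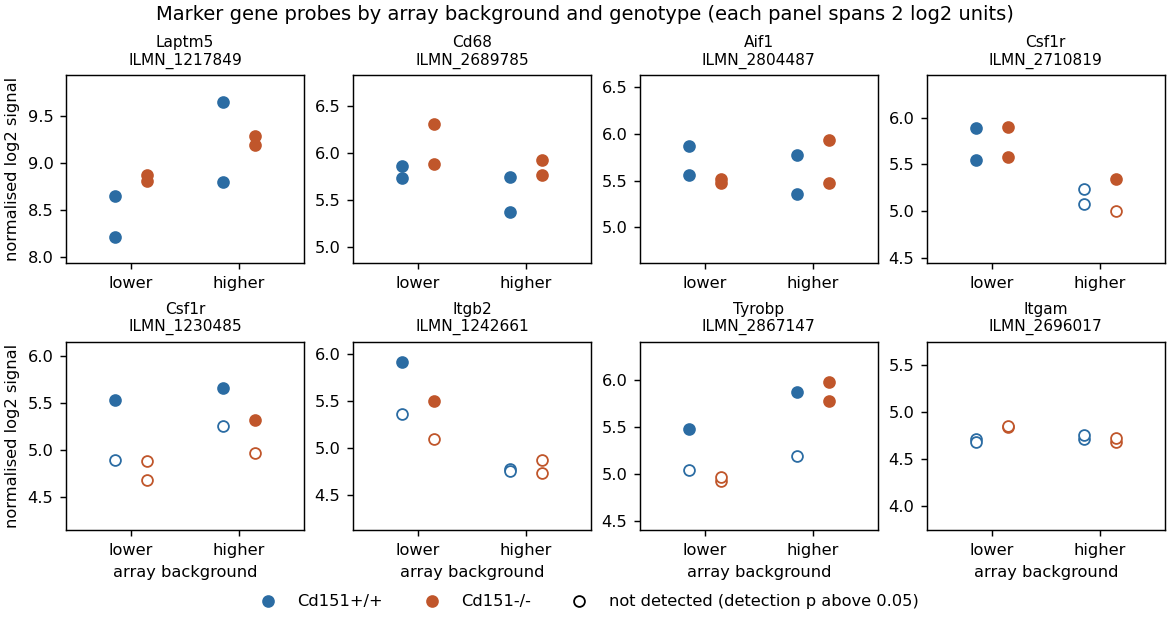
The normalised log2 signal of 8 probes is plotted for the mice of each genotype on arrays of lower and of higher background, with open circles where the probe was not detected. Csf1r (ILMN_2710819) and Itgb2 sit higher on every array of lower background, Tyrobp is lower there on average, and Itgam, a gene detected on no array, is flat.

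Ligands and partners of these proteins were measured beside them. Of 6 genes around CSF1R on the array, 4 were detected, 2 higher and 2 lower, and none passed an unadjusted p of 0.05 in limma. Csf1, the ligand, was detected in all 8 mice, at 6.25 ± 0.51 in Cd151+/+ and 6.67 ± 0.33 in Cd151-/- mice (SD, n = 4 each), a difference of 0.42 that did not pass (adjusted p = 0.918, limma, Benjamini-Hochberg). Of 7 beta2 integrin partners and ligands, 5 were detected, 2 higher and 3 lower. Icam1, which endothelium presents to beta2 integrins, differed by 0.11 and Icam2 by −0.20 (adjusted p over 0.9 in both). C3, the complement protein whose fragments Mac-1 binds, was at 6.74 ± 0.46 in Cd151+/+ and 8.20 ± 1.41 in Cd151-/- mice. It was the 1 gene of that list past an unadjusted p of 0.05 in limma (0.0280), a limit that 1.9% of all tested genes passed in that direction, and did not pass adjustment (adjusted p = 0.918; exact permutation test, p = 0.114).

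Of 14 receptors, adaptors and kinases around Tyrobp and Fcer1g, not all of them direct partners, 7 were detected, 4 higher and 3 lower, with a median difference of 0.03. Fcgr2b, the inhibitory Fc receptor, was the 1 past an unadjusted p of 0.05 in limma (0.0407), at 6.35 ± 0.30 in Cd151+/+ and 7.20 ± 0.80 in Cd151-/- mice (SD, n = 4 each; adjusted p = 0.918; exact permutation test, p = 0.0571). The difference was 1.37 among the arrays of lower and 0.32 among those of higher background. Hcst, which encodes the DAP10 adaptor, was detected in every mouse and differed by 0.03. The receptor gene Trem1 was detected in 1 Cd151+/+ and 4 Cd151-/- mice and differed by 0.43 (adjusted p = 0.918, limma, Benjamini-Hochberg). Its difference was 0.81 among the arrays of lower and 0.05 among those of higher background. Trem2, Fcgr1 and the kinase genes Syk, Fgr and Btk were among those not detected on any array.

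Of 32 further macrophage genes on the array, 9 were detected in all 8 mice and 17 in none, and of the 15 with a detected reading 8 were higher and 7 lower in Cd151-/- glomeruli, with a median of 0.07 and 0 past an unadjusted p of 0.05 in limma. Some of them stood well clear of the background, named here after their values were seen. Cd14, a receptor for bacterial lipopolysaccharide, was at 8.36 ± 0.28 and 8.45 ± 0.17, and Lyz2 (Lyzs on the array), a lysozyme of myeloid cells, at 9.66 ± 0.21 and 9.53 ± 0.35. Mrc1, a mannose receptor that some endothelia also carry, was at 10.92 ± 0.61 and 10.41 ± 0.73 (SD, n = 4 in each genotype). None of these differences passed (adjusted p of 0.918 to 0.955, limma, Benjamini-Hochberg). Of the 15 tested genes of that list, 1 had genotypes without overlap, against 2.27% of all tested genes. It was Irf8 (Icsbp1 on the array), a transcription factor gene of the myeloid lineage. Among the undetected genes of the list Sfpi1 also did not overlap, at 5.01 ± 0.13 in Cd151+/+ and 4.68 ± 0.12 in Cd151-/- mice (SD, n = 4 in each genotype). Its readings could not be told from those of the negative controls, so this gap is not read as a change in RNA. The share of undetected genes without overlap was not counted. An undetected gene of the list around Tyrobp and Fcer1g also did not overlap, and was higher in Cd151-/- mice. Irf8 was detected in 0 Cd151+/+ and 3 Cd151-/- mice, and so was tested through the knockout arrays alone. Its log2 signal was 5.10 ± 0.06 and 5.45 ± 0.08 (SD, n = 4 each; adjusted p = 0.918, limma, Benjamini-Hochberg). The exact permutation test gave p = 0.0286, its smallest, which follows from the lack of overlap for which the gene was named. With each Cd151+/+ reading raised to at least the lowest detected level of its array, the difference was 0.07, or 1.05-fold. The C1q genes C1qb and C1qg, Cd163, Msr1 and Ccr2 were among those that no array detected.

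**Figure D4:**
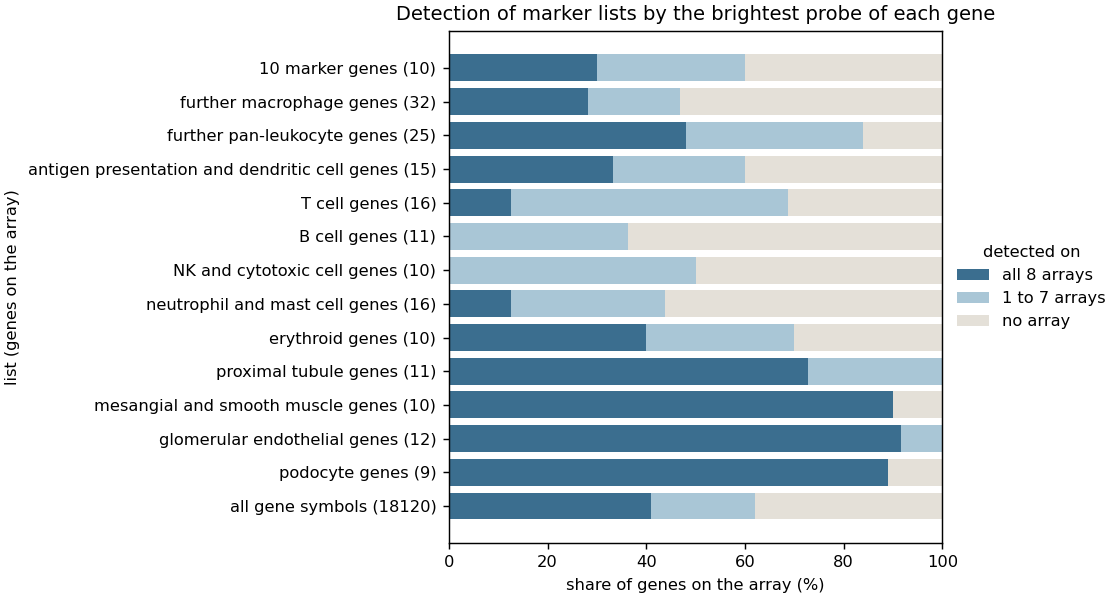
Bars give, for each list of cell type markers, the percentage of its genes on the array whose brightest probe was detected on all 8 arrays, on 1 to 7 and on none. Of the marker genes 30% were detected on all 8 and 40% on none, and of 9 podocyte genes 8 were detected on all 8.

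Markers of the resident glomerular cells were mostly read in every mouse, 8 of 9 for podocytes, 11 of 12 for endothelium and 9 of 10 for mesangium and smooth muscle. Of the 8 podocyte genes tested 0 were higher and 8 lower in Cd151-/- isolates, with a median of −0.21, and of the 12 endothelial genes 2 were higher and 10 lower, with a median of −0.39, none past an unadjusted p of 0.05 in limma. Markers of proximal tubule, a neighbouring structure, were detected as well. All 11 were higher in Cd151-/- isolates, with a median of 0.61, and 2 were past an unadjusted p of 0.05 in limma, Slc22a8 by 1.45 (adjusted p = 0.744, limma, Benjamini-Hochberg) and Kap by 1.38 (adjusted p = 0.918). Their signals summed to between 21430 and 63290 per wild-type and between 37530 and 72600 per knockout mouse. Those of 10 erythroid genes summed to between 38240 and 50300 and to between 18020 and 37670, without overlap. The part of tubule, blood or glomerular yield in the values of the macrophage and leukocyte genes was not tested.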

How the data were processed

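The authors deposited, for 8 Illumina MouseRef-8 arrays of 1 mouse each, a signal intensity per probe, the mean brightness of its beads, neither background-subtracted nor normalised, and a detection p-value in steps of 1 over 798 negative controls. The study's own cubic spline normalisation in GenomeStudio is not in these values. Groups come from the sample labels. In R 4.3.3, the neqc function of limma 3.58.1 (normexp correction with a background inferred per array, offset 16, quantile normalisation) was applied and the genotypes were fitted with lmFit and eBayes. Any probe that reached a detection p-value of 0.05 in 1 or more mice was tested, 14967 in all, and p-values were adjusted across these by Benjamini-Hochberg. The exact permutation tests used all 70 divisions of 4 mice against 4, and cannot give a p below 0.0286. The probe with the highest mean over the 8 mice spoke for a gene. Summed list signals are background-corrected and normalised, with the offset removed.

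The genes, the lists of partners and of cell type markers, the named genes and the tests were chosen with earlier results of these data known. Named genes are all 10 markers, partners with a direct role, list genes past an unadjusted p of 0.05 and the 5 genes most like the detected markers. A few further genes (Kdr, Sfpi1, Irf8, Coro1a and other macrophage genes) were named after their values were seen. Alternatives tried were other background corrections, normalisations, offsets, detection filters, blocks, variance models, the other probe of a gene and each mouse left out in turn. The procedure was tested on simulated data, with changes placed only in probes brighter than every marker gene but Laptm5. That test gives no rate of recovery for changes in the other marker genes. SAM, the study's own test, was not run. Single results of 2 list genes are not reported here. The columns name no slide, so no slide effect was fitted.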

Additional observations from a re-analysis of the deposited data

Results flagged for a closer look

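For Aif1 (ILMN_2804487), Cd151-/- mouse 1 had a normalised log2 signal of 5.93, apart from the other 3 Cd151-/- mice at 5.47 to 5.52. The gap to the nearest of them was 0.892 of the range of that group. Of 16 groups of 4 mice examined, this was the 1 found, and chance gives about 1 in 20. Its array was in the set of higher background, and without that mouse the difference between genotypes was −0.14.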

How the results depend on the processing

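Under each alternative run, 0 of the marker genes tested passed an adjusted or an unadjusted p of 0.05 in that fit. All 10 genes were tested with no detection filter, 3 with the strictest filter and 6 otherwise. The difference for Csf1r became negative with scaling to the 75th percentile (−0.12), with array weights (−0.34) and by its other probe (−0.37), and that for Aif1 became positive with array weights (0.050). Array weights also moved Laptm5 to 0.52, Itgb2 to −0.50, Tyrobp to 0.35 and Cd68 to 0.13, and deposited signals without normexp gave 0.12 for Cd68. With each mouse left out in turn, differences ranged from −0.14 to 0.040 for Aif1, −0.13 to 0.18 for Csf1r, −0.31 to 0.091 for Itgb2 and −0.16 to 0.18 for Tyrobp, and the median over the marker genes from −0.07 to 0.09, while Laptm5 (0.01 to 0.49) and Cd68 (0.18 to 0.37) stayed positive in these fits. Requiring detection on all 4 arrays of a genotype left 3 of the genes, with a median of 0.22. Over all tested probes 5 were called, 4 to 6 with a mouse left out, 8 with the background set as a block and 3 with an equal-variance test. The causes were not tested, except that the detection filter leaves fewer genes.

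Mice that share a number deviated in opposite directions or not together (correlations of −0.583, −0.404, −0.533 and −0.00856). Each number joined an array of lower with an array of higher background, so these correlations cannot tell whether the numbers pair the mice. The main fit did not treat them as pairs. With the mouse number as a replicate block, 4 probes were called, 0 of them for a marker gene, the differences between genotypes stayed as they were and the adjusted p was 0.998 for Laptm5 and Cd68. Signals near the background limited the reading of 9 of the 10 genes.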

Other observations

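The 7 further lists of leukocyte genes (other macrophage and pan-leukocyte genes, antigen presentation, T, B, natural killer and neutrophil or mast cells) held 125 genes on the array, of which 30 were detected in every mouse and 53 in none. Of the 72 tested, 24 were higher and 48 lower in Cd151-/- glomeruli, with a median of −0.12, and at limma's unadjusted p of 0.05 there were 0 upward and 2 downward, against 1.9% and 2.47% of all tested genes. None passed adjustment. The lists did not all point one way. Of 21 pan-leukocyte genes 16 were lower and 5 higher, with a median of −0.10, all 4 B cell genes tested were lower, and so were 4 of 5 natural killer and cytotoxic cell genes. Coro1a, an actin-binding protein of leukocytes, was lower in every Cd151-/- mouse (8.34 ± 0.24) than in any Cd151+/+ mouse (8.69 ± 0.16). The mean difference was −0.34 (adjusted p = 0.918, limma, and exact permutation test, p = 0.0286). Coro1a was named after its values were seen. Genotypes did not overlap in 3 of the 72 tested genes, Irf8, Coro1a and Cd3d, against 2.27% of all tested genes. For each of these 3, the permutation p of 0.0286 follows from the lack of overlap. Of 11 T cell genes tested 10 were lower and 1 higher, with Cd3d, a chain of the T cell receptor complex, at 5.93 ± 0.30 in Cd151+/+ and 5.15 ± 0.36 in Cd151-/- mice (SD, n = 4 each; adjusted p = 0.918, limma; exact permutation test, p = 0.0286, the smallest that 4 mice against 4 can give). Of 9 genes of antigen presentation and dendritic cells, 7 were higher and 2 lower, with a median of 0.13. Among 7 neutrophil and mast cell genes 5 were lower, and Retnlg, a secreted protein of neutrophils, differed by −1.17 (adjusted p = 0.918, limma). Of 13 chemokine and cytokine genes 8 were higher, with a median of 0.21. The summed signal of erythroid genes, a sign of blood in the isolate, was lower in every Cd151-/- mouse than in any Cd151+/+ mouse, 8 of 8 podocyte genes (median −0.21) and 10 of 12 endothelial genes (median −0.39) were lower as well, and the part of these in the leukocyte values was not tested. In the lists of resident and blood cells, genes past an unadjusted p of 0.05 in limma were Pdgfrb (−0.74) and Acta2 (0.71) of mesangium and smooth muscle and Hba-a1 (−0.69) and Alas2 (−2.57) of erythroid cells, none of them past adjustment.

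The pattern over the 8 mice of the 3 marker genes detected in every mouse, as their mean, was compared with that of 7414 other genes detected in every mouse. The 5 genes most like it were F2rl3, Clock, Tssc1, 1110020C13Rik and Znhit2, with Pearson's r from 0.987 down to 0.927 over mice whose arrays fall into 2 sets by background. The 3 marker genes had little of a pattern in common themselves, with r of −0.05 between Laptm5 and Cd68, −0.03 between Cd68 and Aif1 and 0.27 between Laptm5 and Aif1, so likeness to their mean is not likeness to each of them. None of the 5 passed the test between genotypes (adjusted p of 0.918 to 0.947, limma).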
